A study of Mus musculus with 10 samples.

Results

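The vascular fraction of interscapular brown adipose tissue (iBAT) was examined through 10 marker genes of endothelial cells, the cells that line blood vessels. The genes were Pecam1, Cdh5, Kdr, Flt1, Tek, Tie1, Esam, Egfl7, Cldn5 and Vwf, and they were taken by symbol from a table of 54347 gene records. All 10 were found with 1 record each, and all 10 were among the 13733 genes that were expressed enough to be tested. The study asked whether loss of the lncRNA Gm15551 alters iBAT. It compared 5 ΔGm15551 mice (replicates 1, 2, 4, 5 and 7), which carried a CRISPR/Cas9 deletion that includes exon 1 of Gm15551, with 5 wild type mice (replicates 2, 3, 5, 6 and 7). All 10 mice were of strain C57BL/6N-ΔGm15551, 12 weeks old and kept alone at 4 °C for 24 h before the depot was taken, and the methods name a chow diet. The methods describe 1 germline deletion, so that vessel cells carried it as well as adipocytes. No group at room temperature was analysed here, so that every level given below is a level in cold-exposed tissue.

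Brown fat is densely supplied with capillaries, which deliver oxygen and fatty acids and carry away heat. Endothelial cells grow and survive in answer to VEGF, which is read by the receptor tyrosine kinases encoded by Kdr and Flt1, and to angiopoietins, which are read by the kinase encoded by Tek together with its partner encoded by Tie1. They hold on to each other through junction proteins, among them those encoded by Cdh5, Cldn5, Esam and Pecam1, and they secrete the matrix-bound factor EGFL7 and the clotting protein von Willebrand factor. In whole tissue, fewer endothelial cells and less RNA per endothelial cell cannot be told apart.

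The libraries held 9680976 to 15771170 counts per mouse. Gm15551 was counted 0 times in all 5 ΔGm15551 mice, which at their depth allows up to 0.208 to 0.238 CPM (counts scaled to the size of the library). It was counted 1, 2, 6, 7 and 0 times in wild type replicates 2, 3, 5, 6 and 7 (two-sided exact permutation test on CPM, p = 0.0476, and p = 0.0873 when any 1 of the ΔGm15551 mice was left out). The library labelled wild type replicate 7 could therefore not be told from the ΔGm15551 libraries by this gene. The libraries differed in skeletal muscle RNA, with 10 muscle genes taking 0.301% of the counts in wild type replicate 7, 0.198% in ΔGm15551 replicate 4, 0.0833% in ΔGm15551 replicate 1 and at most 0.0282% in the other 7 mice. Wild type replicates 5, 6 and 7 carried mouse numbers from a higher series than the other 7 mice, and for them this series and the genotype cannot be told apart.

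The depot held a clear endothelial signal. None of the 10 markers was near 0 in any mouse, the lowest single value being 155 counts of Cldn5 in wild type replicate 3, and together they took 0.106% to 0.199% of the counts of a library. Counts were divided by the annotated exon length to compare levels between genes. On this scale Cdh5 was highest, at 66.6 ± 12.0 CPM per kb (SD, n = 10 mice). Kdr followed at 40.4 ± 9.50, Egfl7 at 36.8 ± 15.1 and Pecam1 at 32.0 ± 7.12 CPM per kb. Esam was at 26.3 ± 6.11, Cldn5 at 20.1 ± 10.3 and Tie1 at 17.4 ± 4.03 CPM per kb. Flt1 stood at 14.0 ± 2.82, Tek at 9.71 ± 1.80 and Vwf, the lowest, at 2.42 ± 0.779 CPM per kb. The step from Cdh5 to Kdr was seen within each of the 10 mice, as were those from Pecam1 to Esam, Tie1 to Flt1, Flt1 to Tek and Tek to Vwf. Cldn5 and Tie1 could not be ordered, as Cldn5 was the higher in 5 of 10 mice, and Kdr was above Egfl7 in 8 mice, Egfl7 above Pecam1 in 7 and Esam above Cldn5 in 8. The exon length joins all annotated transcripts of a gene, and part of the order turned when the longest transcript was used instead, a choice made after the data had been seen. Flt1 (27.5 ± 5.52 CPM per kb) then lay above Tie1 (20.2 ± 4.68) in all 10 mice, Egfl7 (70.6 ± 29.0) had the highest mean although Cdh5 (70.1 ± 12.6) was above it in 8 of 10 mice, and Kdr was below Cdh5 in 9 of 10 mice. The steps from Pecam1 to Esam, Flt1 to Tek and Tek to Vwf were seen in all 10 mice with both lengths.

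**Figure D1:**
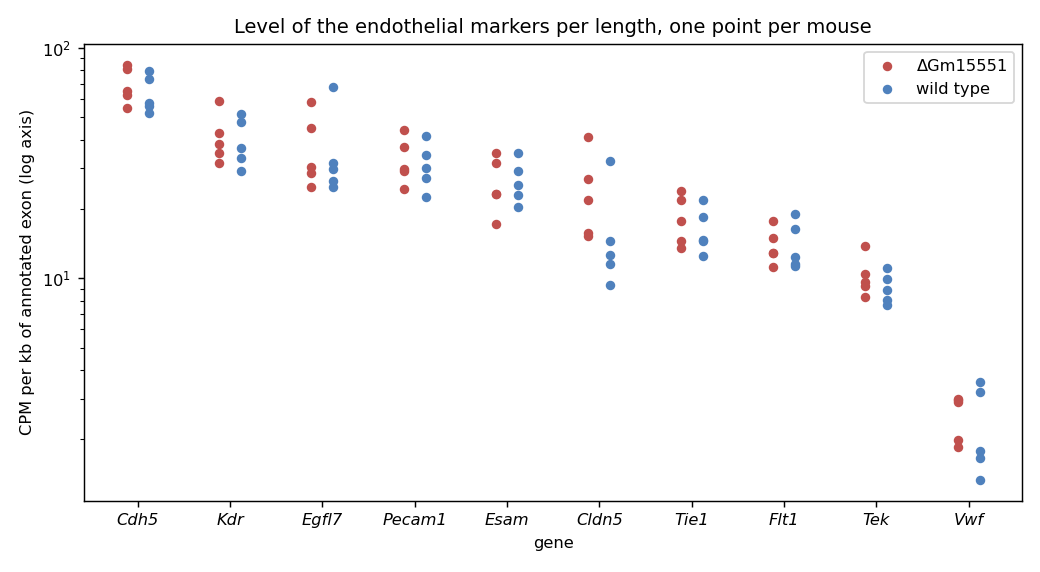
Level of the 10 endothelial marker genes in CPM per kb of annotated exon (vertical log axis), ordered from left to right by their mean, with 1 point per mouse in red for ΔGm15551 and blue for wild type. With this length Cdh5 is highest and Vwf lowest, and the points of both genotypes overlap for every gene.

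The set of RefSeq promoter windows used here (GRCm38.p6) held 6 of the 10 genes, namely Egfl7, Tek, Tie1, Kdr, Flt1 and Cldn5, and no entry was found in it for Pecam1, Cdh5, Esam and Vwf. Endothelial genes are known targets of ETS and forkhead factors, and the letters CAGGAA and ACCGGAA (ETS-type) and GTAAACA (forkhead-type) were searched on both strands of each 300-base window. CAGGAA was found in 4 of the 8 windows of these genes (2 of the 3 of Egfl7, and those of Tek and Tie1), beside 30.6% of all 32851 promoters. ACCGGAA and GTAAACA were found in 0 of the 8, beside 3.72% and 3.65% of all promoters. CAGGAA and GTAAACA can overlap by 2 letters, which did not occur. The windows of the receptor pair Tek and Tie1, of Egfl7 (the middle of its 3 annotated starts) and of Cldn5, the marker that differed most between mice, are shown 5′ to 3′, with CAGGAA or its reverse complement in capitals.
Tek (chr4:94739039-94739338, plus strand): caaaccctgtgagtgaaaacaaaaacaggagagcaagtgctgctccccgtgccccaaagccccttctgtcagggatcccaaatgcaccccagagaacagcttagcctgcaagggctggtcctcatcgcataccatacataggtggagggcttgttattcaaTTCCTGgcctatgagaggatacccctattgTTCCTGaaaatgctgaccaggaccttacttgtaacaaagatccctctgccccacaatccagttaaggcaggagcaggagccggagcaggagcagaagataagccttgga
Tie1 (chr4:118489800-118490099, minus strand): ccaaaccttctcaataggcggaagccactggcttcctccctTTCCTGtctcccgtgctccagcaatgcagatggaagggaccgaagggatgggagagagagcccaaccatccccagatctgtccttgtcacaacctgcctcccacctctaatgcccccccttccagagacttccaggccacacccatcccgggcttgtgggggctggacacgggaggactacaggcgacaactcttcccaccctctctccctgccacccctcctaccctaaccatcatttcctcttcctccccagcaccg
Egfl7 (chr2:26583615-26583914, plus strand): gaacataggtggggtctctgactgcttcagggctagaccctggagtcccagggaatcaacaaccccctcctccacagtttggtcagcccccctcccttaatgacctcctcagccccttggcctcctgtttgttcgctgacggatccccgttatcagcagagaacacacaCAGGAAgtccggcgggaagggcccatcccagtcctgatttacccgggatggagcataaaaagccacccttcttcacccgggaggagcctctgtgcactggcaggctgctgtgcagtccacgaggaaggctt
Cldn5 (chr16:18776597-18776896, plus strand): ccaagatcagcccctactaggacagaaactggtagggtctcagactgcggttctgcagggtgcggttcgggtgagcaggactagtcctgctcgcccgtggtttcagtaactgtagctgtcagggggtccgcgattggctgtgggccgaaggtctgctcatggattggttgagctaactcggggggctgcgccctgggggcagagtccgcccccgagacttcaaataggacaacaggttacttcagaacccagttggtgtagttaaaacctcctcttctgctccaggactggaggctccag
Such a match says only that the letters are there. Cldn5, Kdr and Flt1 had 0 matches in their windows.

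Of the VEGF receptors, Kdr took the most counts of all 10 markers. Kdr (ENSMUSG00000062960.10, chromosome 5, 75932827 to 75978458, minus strand, GRCm38) encodes VEGFR2, the main signalling receptor. It was at 529, 286, 346, 385 and 315 CPM in ΔGm15551 replicates 1, 2, 4, 5 and 7, and at 429, 333, 299.5, 263 and 464 CPM in wild type replicates 2, 3, 5, 6 and 7. ΔGm15551 replicate 1 was the highest and wild type replicate 6 the lowest, and the groups overlapped over most of their range. Flt1 (ENSMUSG00000029648.13, chromosome 5, 147561604 to 147726011, minus strand) encodes VEGFR1, which binds VEGF tightly and also occurs as a soluble decoy. Its values were 239, 151, 174, 202 and 174 CPM in ΔGm15551 mice and 222, 153, 167, 156 and 256 CPM in wild type, in the same order of replicates. Here wild type replicate 7 was the highest mouse and ΔGm15551 replicate 2 the lowest. The log2FC of ΔGm15551 against wild type was 0.057 (SE 0.19) for Kdr and -0.019 (SE 0.17) for Flt1. The ratio of Kdr to Flt1 counts within a mouse, which needs no scaling between libraries, averaged 1.96 ± 0.155 in ΔGm15551 mice and 1.88 ± 0.188 in their controls (SD, 5 mice per group), with a two-sided exact permutation p of 0.437.

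Of the angiopoietin receptors, Tek (ENSMUSG00000006386.15, chromosome 4, 94739289 to 94874976, plus strand) encodes TIE2, the kinase that binds angiopoietins. It was at 65.2, 43.5, 39.1, 49.2 and 45.3 CPM in ΔGm15551 mice and at 46.8, 42.0, 36.3, 37.95 and 52.2 CPM in wild type. ΔGm15551 replicate 1 lay above all other mice, and the remaining 9 mice were mixed. Tie1 (ENSMUSG00000033191.14, chromosome 4, 118471191 to 118490061, minus strand) encodes the orphan partner that modulates TIE2. It was at 107, 66.4, 71.7, 118 and 87.6 CPM in ΔGm15551 mice and at 91.2, 61.5, 72.3, 71.6 and 108 CPM in wild type. The same 3 mice, ΔGm15551 replicates 1 and 5 and wild type replicate 7, were the highest for both genes, although in a different order. The log2FC was 0.17 (SE 0.15) for Tek and 0.16 (SE 0.19) for Tie1. The ratio of Tek to Tie1 counts averaged 0.549 ± 0.0915 in ΔGm15551 mice and 0.543 ± 0.0799 in their controls (SD, 5 mice per group), with a two-sided exact permutation p of 0.921.

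Junction and adhesion genes came next. Cdh5 (ENSMUSG00000031871.9, chromosome 8, 104101625 to 104144511, plus strand) encodes VE-cadherin, the adherens junction protein that defines endothelium. It was at 339, 231, 264, 355 and 274 CPM in ΔGm15551 mice and at 309, 241, 235, 218 and 333 CPM in wild type. The spread was the narrowest of the 10 markers, with a coefficient of variation (CV) of 18.03% over the 10 mice. Pecam1 (ENSMUSG00000020717.19, chromosome 11, 106654217 to 106750628, minus strand) encodes the adhesion protein CD31, which platelets and some leukocytes also carry. Its values were 275, 152, 185, 231 and 182 CPM in ΔGm15551 and 214, 187, 169, 141 and 259 CPM in wild type. ΔGm15551 replicate 1 and wild type replicate 7 were again the highest 2 mice.

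Esam (ENSMUSG00000001946.14, chromosome 9, 37528078 to 37538319, plus strand) encodes an adhesion protein of endothelial tight junctions. It was at 91.1, 49.6, 66.5, 100.4 and 66.3 CPM in ΔGm15551 mice and at 83.7, 65.9, 72.9, 58.5 and 100.01 CPM in wild type. The top of both groups was the same, and the log2FC was -0.026 (SE 0.19). It was 0.13 (SE 0.16) for Cdh5 and 0.081 (SE 0.19) for Pecam1.

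Cldn5 (ENSMUSG00000041378.2, chromosome 16, 18776847 to 18778262, plus strand) encodes claudin-5, the tight junction protein best known from the blood-brain barrier, and it differed most between mice. It was at 58.0, 30.9, 22.2, 38.3 and 21.6 CPM in ΔGm15551 mice and at 20.6, 13.3, 17.8, 16.3 and 45.8 CPM in wild type. All 5 ΔGm15551 mice lay above wild type replicates 2, 3, 5 and 6, whereas wild type replicate 7 lay above 4 of the 5 ΔGm15551 mice. The highest value was 4.37 times the lowest and the CV was 51.2%, where counting alone gives about 5.24% at a mean of 364 counts. The log2FC was 0.60 (SE 0.37, 95% confidence interval -0.21 to 1.40), and it was not called (unadjusted p = 0.131, adjusted p = 0.99998, edgeR). Without wild type replicate 7 the log2FC was 1.01 (unadjusted p = 0.00426, adjusted p = 0.9752, edgeR), and without ΔGm15551 replicate 1 it was 0.32 (unadjusted p = 0.375, edgeR). The estimate for Cldn5 thus depended on these 2 mice. The ratio of Cldn5 to Cdh5 counts averaged 0.115 ± 0.0381 in ΔGm15551 mice and 0.0819 ± 0.0322 in their controls (SD, 5 mice per group), with a two-sided exact permutation p of 0.127, or 0.508 once adjusted over the 4 ratios tested. Without wild type replicate 7 the exact permutation p of this ratio was 0.0317 before adjustment.

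The secreted products were Egfl7 and Vwf. Egfl7 (ENSMUSG00000026921.20, chromosome 2, 26580014 to 26593120, plus strand) encodes a factor that endothelial cells deposit in their matrix, and an intron of the gene holds miR-126. It was at 209, 102, 89.4, 160 and 109 CPM in ΔGm15551 mice and at 114, 89.2, 107, 94.3 and 242 CPM in wild type. Wild type replicate 7 and ΔGm15551 replicate 1 were both above the other mice, and the CV of 41.0% was the second largest. Vwf (ENSMUSG00000001930.17, chromosome 6, 125546774 to 125686679, plus strand) encodes von Willebrand factor, which is typical of veins and larger vessels and is also made by megakaryocytes. It was at 48.2, 31.8, 29.7, 47.8 and 46.6 CPM in ΔGm15551 mice and at 51.8, 21.4, 28.6, 26.6 and 56.8 CPM in wild type. Wild type mice spanned the whole range of this gene, with both the highest and the lowest value of the 10 mice. The log2FC was 0.053 (SE 0.30) for Egfl7 and 0.14 (SE 0.26) for Vwf. The ratio of Vwf to Pecam1 counts averaged 0.201 ± 0.0370 in ΔGm15551 mice and 0.187 ± 0.0492 in their controls (SD, 5 mice per group), with a two-sided exact permutation p of 0.595.

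**Figure D2:**
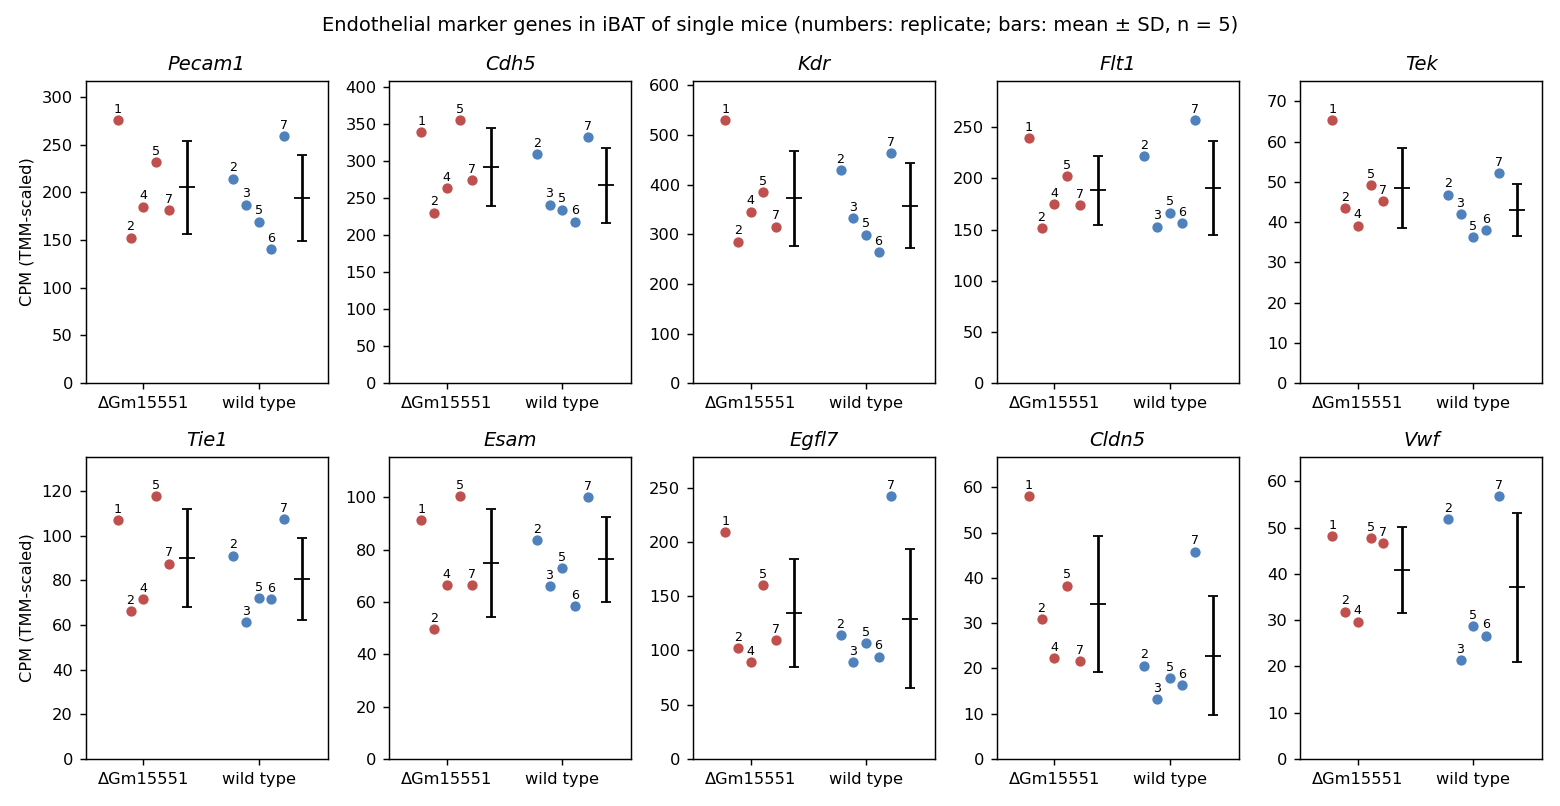
CPM (TMM-scaled, vertical axes from 0) of the 10 endothelial marker genes in each of 5 ΔGm15551 (red) and 5 wild type (blue) mice, with the replicate number at each point and the mean ± SD at the right of each group. In all 10 panels the groups overlap, and replicate 1 of ΔGm15551 and replicate 7 of wild type are among the 3 highest mice.

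No genotype difference was detected at these markers. Of the 10 genes, 0 were called by edgeR after adjustment, where 0% of all genes tested were. Before adjustment 0 of 10 markers were under 0.05, 0 of them higher and 0 lower in ΔGm15551, beside 1.6% of all genes (0.961% higher and 0.641% lower), and DESeq2 and limma-voom likewise gave 0 of 10 markers at either threshold. The groups were fully separated for 0 of 10 genes, beside 0.32% of all genes (0.226% with ΔGm15551 higher and 0.0947% with it lower). The markers had a median log2FC of 0.11, beside -0.001 over all genes tested, and 8 of 10 were above 0, beside 49.7% of all genes. Since the markers varied together from mouse to mouse, these 8 are not separate observations. Without ΔGm15551 replicate 1 the median was -0.003 with 5 of 10 above 0, and without wild type replicate 7 it was 0.24 with 10 of 10 above 0.

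What differences these data leave possible is given by the intervals. The 95% confidence interval of the fold of ΔGm15551 over wild type ran from 0.864 to 1.39 for Cdh5, from 0.800 to 1.40 for Pecam1 and from 0.778 to 1.39 for Kdr. It ran from 0.764 to 1.28 for Flt1, from 0.904 to 1.41 for Tek, from 0.843 to 1.47 for Tie1 and from 0.735 to 1.31 for Esam. The intervals were wider for Vwf (0.744 to 1.64) and Egfl7 (0.660 to 1.63), and widest for Cldn5 (0.867 to 2.64). An upper bound above 2 was found for Cldn5 alone among the 10.

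**Figure D3:**
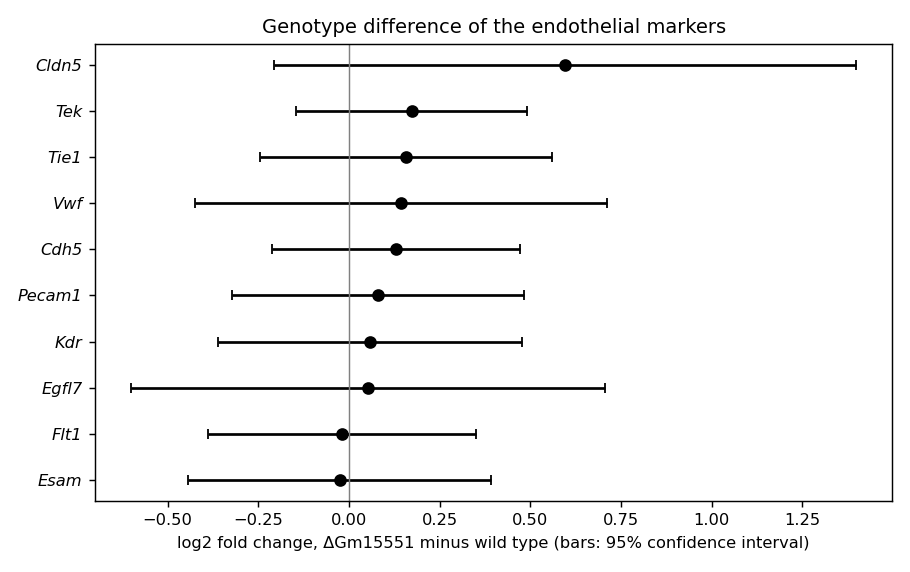
Log2FC of ΔGm15551 minus wild type (horizontal axis) for the 10 endothelial marker genes, with points for the edgeR estimates and bars for their 95% confidence intervals. Every bar crosses 0, and Cldn5 has the largest estimate (0.60) and the widest bar.

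The markers differed widely between mice of both genotypes. Each marker was expressed as its log2 CPM minus its mean over the 10 mice. ΔGm15551 replicate 1 had a mean deviation of 0.52 over the 10 markers, wild type replicate 7 of 0.50 and ΔGm15551 replicate 5 of 0.32, and in each of these 3 mice 10 of 10 markers were above their mean. Wild type replicate 2 was at 0.12 (8 of 10 above) and ΔGm15551 replicate 7 at -0.06 (3 of 10 above). The low end held ΔGm15551 replicates 4 and 2 at -0.18 and -0.24 and wild type replicates 5, 3 and 6 at -0.25, -0.35 and -0.38. In wild type replicates 3, 5 and 6 and in ΔGm15551 replicate 4, 0 of 10 markers were above their mean. High and low mice thus occurred in both groups, and the summed level of the markers ran from 1145 to 1962 CPM in ΔGm15551 mice and from 1084 to 1917 CPM in wild type. Among wild type mice, the higher number series held both the lowest and the highest mouse, with a mean sum of 1402 ± 450 CPM (SD, n = 3), beside 1395 ± 265 CPM (SD, n = 2) in the other series.

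**Figure D4:**
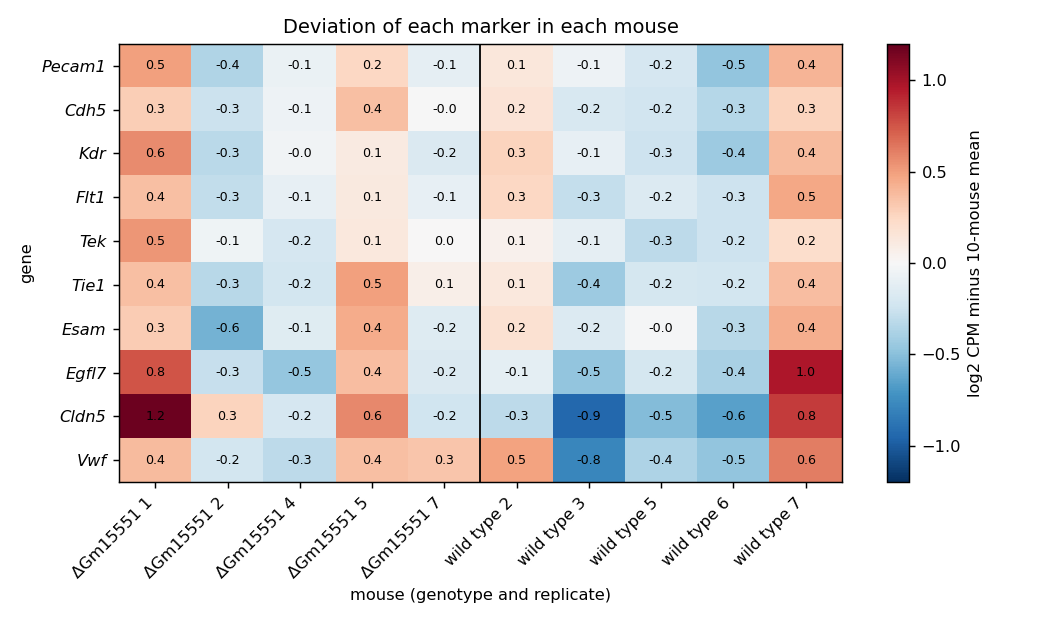
Deviation of the log2 CPM of each endothelial marker (rows) from its 10-mouse mean in each mouse (columns; ΔGm15551 left of the line, wild type right), with red for above and blue for below the mean and the value in each cell. The columns of ΔGm15551 replicates 1 and 5 and of wild type replicate 7 are red for 10 of 10 genes.

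Over the 10 mice, all 45 pairs of markers were positively correlated in log2 CPM. Pearson's r ran from 0.58 to 0.97 with a median of 0.83, and 44 of the 45 pairs had an adjusted p under 0.05 (permutation test with 100000 resamples, two-sided, Benjamini-Hochberg over the 45). The share of pairs under this threshold was not computed for other genes. For the 13723 other genes tested, r with the mean standardised level of the markers ran from -0.89 (5th percentile) to 0.86 (95th percentile). Spearman's rho ran from 0.59 to 0.98 and passed for 40 pairs. The closest pair was Pecam1 and Kdr (r = 0.97, permutation p = 2e-05, adjusted p = 0.00090; rho = 0.98, adjusted permutation p = 0.00135), and r was 0.94 without the 2 mice farthest from the median of Pecam1, namely ΔGm15551 1 and wild type 7. The loosest pair was Esam and Cldn5 (r = 0.58, permutation p = 0.0802; rho = 0.59, permutation p = 0.0802). Without the 2 mice farthest from the median of the first gene of each pair, r still lay above 0 for 45 of 45 pairs, from 0.27 (Kdr and Cldn5) to 0.95 (Cdh5 and Kdr), with a median of 0.75. Taking deviations from the group means gave a median of 0.85. Cdh5 had the highest median r with the other 9 markers (0.89) and Vwf the lowest (0.73), followed by Cldn5 (0.74).

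The median CV of the markers over the 10 mice was 23.2%, beside 18.5% over all genes tested. The longest transcripts of Cldn5, Tie1, Egfl7 and Vwf were 60.5%, 57.6%, 57.1% and 56.5% G and C, with a CV of 51.2%, 23.2%, 41.0% and 32.1%. The other 6 had 47.1% (Tek) to 53.7% (Esam) G and C and a CV of 18.03% (Cdh5, at 52.2% G and C) to 23.5% (Kdr, at 49.4%). Libraries differed in such a bias, since genes of 55% GC lay 0.27 higher on the log2 scale than genes of 45% in ΔGm15551 replicate 5, 0.12 higher in wild type replicate 7 and 0.26 lower in wild type replicate 3. After a correction for GC content and transcript length, chosen after the data had been seen, the SD of log2 CPM was 0.54 for Cldn5 (0.69 before), 0.41 for Egfl7 (0.52 before) and 0.44 for Vwf (0.49 before). It was 0.26 for Tie1 (0.33 before), 0.26 for Esam (0.34 before), 0.248 for Cdh5 (0.258 before) and 0.28 for Tek (0.25 before). The SD also rose slightly for Pecam1 (0.321, 0.316 before), Kdr (0.338, 0.325 before) and Flt1 (0.288, 0.278 before). The median over the 10 markers was 0.30 (0.33 before), beside 0.246 (0.265 before) over all genes tested. The mean deviation of the markers was then 0.49 in ΔGm15551 replicate 1, 0.44 in wild type replicate 7, 0.24 in ΔGm15551 replicate 5, and it was -0.24 in wild type replicate 3. The order of the 3 highest mice was as before. The r of the 45 pairs then ran from 0.37 (Esam and Cldn5) to 0.98 with a median of 0.86, and 42 pairs had an adjusted permutation p under 0.05, beside 44 without the correction.

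Other genes of endothelial cells were examined as a list of 25, and all 25 were tested. Of these, 0 passed an adjusted or an unadjusted p of 0.05 in edgeR (0 in either direction), with a median log2FC of 0.05. Eng, which encodes the TGF-β co-receptor endoglin, was at 431 ± 105 CPM in ΔGm15551 mice and 394 ± 97.6 CPM in controls (SD, n = 5 each). Adgrf5, an adhesion receptor gene, was at 202 ± 21.2 and 201 ± 45.3 CPM. Robo4, the guidance receptor gene of endothelium, had the smallest p of the list (log2FC 0.32, SE 0.17, unadjusted p = 0.0802 in edgeR, adjusted p = 0.99998). The mean deviation of these 25 genes ordered the mice almost as the 10 markers did, at 0.52 in ΔGm15551 replicate 1, 0.48 in wild type replicate 7, 0.20 in ΔGm15551 replicate 5, with wild type replicate 2 at 0.07, and below 0 in the other 6 mice. The low end differed, as the lowest mouse was ΔGm15551 replicate 2 (-0.34) and no longer wild type replicate 6 (-0.29).

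Ligands and further receptors of vessel growth formed a list of 20, of which 19 were tested and Angpt4 (at most 3 counts) was not. Again 0 of 19 passed an adjusted or an unadjusted p of 0.05, and the median log2FC was 0.16. Vegfa, which encodes the ligand of KDR and FLT1 and is made by adipocytes, was at 472 ± 96.7 CPM in ΔGm15551 mice and 429 ± 57.6 CPM in controls (SD, n = 5 each; log2FC 0.14, SE 0.15). Unlike its receptors, Vegfa was lowest in wild type replicate 7 (340 CPM) and highest in ΔGm15551 replicate 7 (645 CPM). Nrp1, a VEGF co-receptor gene, was at 166 ± 19.4 and 174 ± 13.1 CPM. Apln, the gene of the vessel growth peptide apelin, had the smallest p of the list (log2FC 0.42, SE 0.22, unadjusted p = 0.0779 in edgeR, adjusted p = 0.99998), with 12.4 CPM in ΔGm15551 replicate 2 and 4.99 to 7.63 CPM in the other ΔGm15551 mice.

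Vessel subtypes were compared in the same way. Capillary transport genes (16 tested), arterial genes (8) and venous genes (6 of 7, without Sele) each held 0 genes at an adjusted or unadjusted p under 0.05, with a median log2FC of 0.05, 0.11 and -0.05. The capillary list includes Fabp4 (12569 ± 1103 against 12421 ± 1343 CPM) and Lpl (10374 ± 1201 against 11958 ± 1116 CPM), which adipocytes also express strongly. Lpl, the gene of the lipase that frees fatty acids at the capillary wall, had the smallest p of its list (log2FC -0.21, SE 0.13, unadjusted p = 0.137 in edgeR). Cxcl12 and Sema3g led the arterial list by level (254 ± 63.8 against 237 ± 43.8 CPM, and 61.5 ± 12.0 against 56.3 ± 17.7 CPM), and Fbln5 had its smallest p (log2FC 0.25, SE 0.14, unadjusted p = 0.0973 in edgeR). Lrg1 (47.1 ± 9.48 against 42.9 ± 9.63 CPM) and Nr2f2 (22.1 ± 4.65 against 22.6 ± 4.996 CPM) led the venous list, with the smallest p at Vcam1 (log2FC -0.28, SE 0.18, unadjusted p = 0.146 in edgeR).

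Lymphatic vessels left little signal. Of 6 lymphatic genes, Prox1, Pdpn and Mmrn1 were too low to be tested (at most 11 counts in any mouse), and Lyve1 was at 1.38 ± 0.307 CPM in ΔGm15551 mice and 1.32 ± 0.560 CPM in controls. The 3 tested had a median log2FC of -0.81, and 0 of them passed either threshold. Reln had a log2FC of -0.81 (SE 0.44, unadjusted p = 0.0901 in edgeR), at under 1 CPM in ΔGm15551 (0.925 ± 0.628, SD, n = 5). Of 13 genes of mural cells, the pericytes and smooth muscle cells around vessels, 0 passed either threshold and the median log2FC was -0.04. Among them Rgs5 was at 224 ± 37.5 and 232 ± 34.3 CPM, Cspg4 at 86.5 ± 15.7 and 86.4 ± 12.3 CPM, and Notch3 had the smallest p (log2FC -0.15, SE 0.12, unadjusted p = 0.236 in edgeR). The mural genes were lowest in ΔGm15551 replicate 2 (mean deviation -0.48) and highest in ΔGm15551 replicate 5 (0.40), with wild type replicate 7 at 0.32 and ΔGm15551 replicate 1 at 0.08.

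Markers of other cells moved with the endothelial markers in part. Brown adipocyte genes (10 tested) had their lowest mean deviations in the 2 mice with the highest endothelial level, at -0.35 in wild type replicate 7 and -0.25 in ΔGm15551 replicate 1, and lay between -0.04 and 0.13 in the other 8 mice. Ucp1, which encodes the heat-producing uncoupling protein, had 5747 CPM in ΔGm15551 replicate 1 and 6436 CPM in wild type 7, beside 8266 to 10989 CPM in the other 8 mice. ΔGm15551 replicate 5 was high in endothelial markers with Ucp1 at 8789 CPM. Red blood cell genes (5 tested) had mean deviations of 1.23 in wild type replicate 7, 0.64 in ΔGm15551 replicate 1 and 0.28 in ΔGm15551 replicate 5, but -0.89 in wild type replicate 2, and their summed level ran from 934 to 1751 CPM in ΔGm15551 mice and from 614 to 2544 CPM in wild type. Macrophage genes (7 tested, 48.5 to 89.6 CPM in sum in ΔGm15551 and 55.8 to 99.9 CPM in wild type) were at 0.45 in ΔGm15551 replicate 1, 0.31 in wild type replicate 7 and -0.26 in ΔGm15551 replicate 5. Fibroblast genes (7 tested, 240 to 386 CPM in sum in ΔGm15551 and 210 to 440 CPM in wild type) were at 0.50, 0.08 and -0.14 in these 3 mice. Wild type replicate 2, at 0.12 in the endothelial markers, was highest in macrophage genes (0.56) and second in fibroblast genes (0.42).

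Platelets can carry Pecam1 and Vwf RNA. Of 8 platelet genes, Gp9, Gp6 and Treml1 were too low to be tested (at most 5 counts), and the 5 tested summed to 8.50 to 17.8 CPM in ΔGm15551 mice and 10.4 to 14.3 CPM in wild type. Their mean deviation was highest in the same 2 mice as that of the endothelial markers, with 0.66 for ΔGm15551 replicate 1 and 0.37 for wild type replicate 7, while ΔGm15551 replicate 5 was at 0.065 and the other 7 mice between -0.46 and 0.16. Muscle tissue holds vessels as well. The 10 muscle genes summed to 1.35 to 1959 CPM in ΔGm15551 mice and 1.56 to 2988 CPM in wild type, so that 2 of the 3 mice with the highest endothelial level were rich in muscle RNA. ΔGm15551 replicate 4, second in muscle RNA, was low in endothelial markers, and ΔGm15551 replicate 5, high in endothelial markers, had 0.00779% of its counts on muscle genes. With the mean log2 CPM of the muscle genes as a covariate the median log2FC of the markers was 0.13, and 0 of 10 passed the adjusted threshold in edgeR (Cldn5: unadjusted p = 0.0387, the only marker under 0.05, beside 2.02% of all genes in that fit). The part of platelets, red blood cells, macrophages, fibroblasts and muscle in the level of the endothelial markers was not tested. The median log2FC was 0.08 for brown adipocyte, 0.05 for red blood cell, -0.20 for macrophage, 0.01 for fibroblast, -0.17 for platelet and -0.26 for muscle genes. Of the 44 genes tested in these 6 lists, 0 passed an adjusted p of 0.05 in edgeR. Before adjustment 1 of 44 (2.27%) was under 0.05, the fibroblast gene Pi16, beside 1.6% of all genes.

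**Figure D5:**
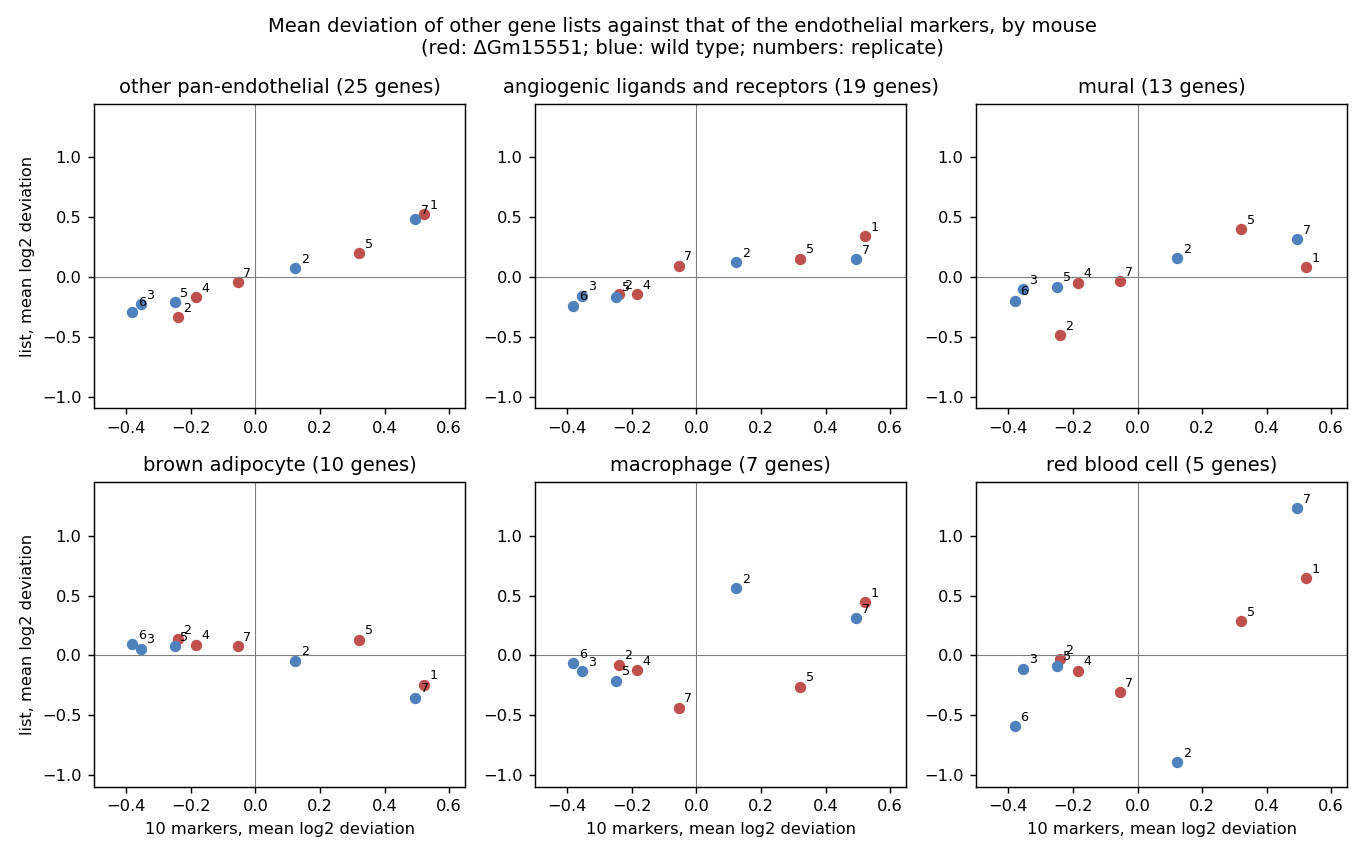
Mean log2 deviation of 6 other gene lists (vertical axes) against that of the 10 endothelial markers (horizontal axes), with 1 point per mouse (red for ΔGm15551, blue for wild type) and the replicate number beside it. The other pan-endothelial genes follow the markers closely, and the brown adipocyte genes are lowest in replicate 1 of ΔGm15551 and replicate 7 of wild type, the mice farthest to the right.

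The genes whose log2 CPM followed the mean standardised level of the 10 markers most closely over the 10 mice were Arap3, Ushbp1, Nhp2, Sh2b3, Casp8, Mmrn2, Fam193b and Cldn15, with r between 0.97 and 0.98. Ushbp1 and Mmrn2 were on the list of other endothelial genes, and Mmrn2 encodes an endothelial matrix protein. Nhp2, by contrast, encodes a component of small nucleolar ribonucleoproteins, which every cell uses. Over all genes, r was above 0.9 for 377 of the 13723 other genes tested (2.75%), and the 5th and the 95th percentile of r were -0.89 and 0.86. The median r with the markers was 0.88 for the 25 other endothelial genes, 0.75 for arterial, 0.68 for mural, 0.65 for capillary, 0.56 for angiogenic, 0.44 for venous and 0.23 for the 3 lymphatic genes, beside 0.05 over all other genes. Lists of other cells were in the same range, at 0.66 for red blood cell, 0.62 for skeletal muscle, 0.57 for platelet, 0.54 for macrophage and 0.49 for fibroblast genes, and brown adipocyte genes were at -0.67. Likeness to the markers was thus not limited to vessel genes.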

How the data were processed

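Poly A RNA of iBAT from 10 mice was sequenced in paired-end reads. Reads were filtered with cutadapt and quantified with salmon against the GENCODE M22 transcriptome, or M22 joined with RNAcentral, on GRCm38; versions are not given in the sources used here. The values deposited by the authors are estimated counts (expected counts) per gene, given as whole numbers and not scaled to depth. Whether strand was used is not stated, so reads of a marker and of an antisense gene cannot be told apart.

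The whole table was fitted with edgeR 4.0.16 under R 4.3.3 (filterByExpr with a minimum count of 10 and a minimum total of 15, TMM, glmQLFit with robust estimation, glmQLFTest, genotype as the only term), with Gm15551 kept although it was under the filter. The Benjamini-Hochberg adjustment covered all 13733 genes of the fit, and calls were made under 0.05. Standard errors and 95% confidence intervals were derived from the F statistics. CPM used TMM-scaled library sizes (library totals for Gm15551 and shares of counts), and log2 CPM had a prior count of 2. Lengths, GC content and positions came from GENCODE M21 on GRCm38, which held 99.5% of the gene IDs. Alternatives used DESeq2 1.42.0 and limma 3.58.1. Within groups, no pair of libraries agreed within sampling noise (smallest chi-square per degree of freedom 12.6). The fit was tested on simulated data.

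The 10 markers and the other gene lists were chosen with earlier results of these data known. Named genes were the 10 markers, Gm15551, the 2 most abundant genes and the gene with the smallest p of each list, and the 8 genes most correlated with the markers. For red blood cell, macrophage, skeletal muscle, platelet, fibroblast and brown adipocyte lists only the genes that bear on the markers are described. Counts of 0 allow up to 3 counts, which covers counting error only. p-values set a difference or a correlation against the spread between the mice sampled.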

Additional observations from a re-analysis of the deposited data

Results flagged for a closer look

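Over the 10 markers and 4 count ratios, 28 sets of 5 values were examined with Dixon's ratio for 1 value far from its neighbours (critical value 0.71), and 4 such values were found, where chance gives about 1.4. Wild type replicate 7 was high in Egfl7 (242 CPM, beside 89.2 to 114 CPM in the remaining controls, ratio 0.839) and in Cldn5 (45.8 CPM, beside 13.3 to 20.6 CPM, ratio 0.775). Its ratio of Cldn5 to Cdh5 counts was also high (0.138, beside 0.0550 to 0.0759, ratio 0.747). These 3 values come from the same library and are not independent. Wild type replicate 3 had a high ratio of Tek to Tie1 counts (0.682, beside 0.485 to 0.530, ratio 0.771). In this mouse the log2 deviation from the 10-mouse mean was -0.10 for Tek and -0.44 for Tie1, and after the correction for GC content and length it was -0.19 and -0.24, so that the gap between the genes was smaller.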

How the results depend on the processing

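The count of markers at an adjusted p under 0.05 was 0 in all 22 alternatives, and the lowest adjusted p of any marker was 0.835 (Tek and Cldn5, without a filter on low counts, edgeR). At an unadjusted p under 0.05 the count was 1, always Cldn5, without the higher mouse number series (log2FC 1.02; 1.91% of all genes in that fit), with the skeletal muscle covariate (log2FC 0.68; 2.02%) and without wild type replicate 7 (2.91%), beside 1.6% in all 10 mice, so that it ran from 0 to 1 when single mice were left out. The same-numbered mice of both groups did not deviate together (r over genes of -0.0653, 0.0537 and -0.395 for numbers 2, 5 and 7), and the numbers were not read as pairs. With the replicate number as a block in these 6 mice, 398 of 13797 genes had an unadjusted p under 0.05, beside 220 in all 10 mice (869 of 30984 without a filter on low counts, 420 without ΔGm15551 replicate 1, 404 without wild type replicate 7) and 554 in the same 6 mice without the block, the markers' median log2FC was -0.14 (-0.15 without the block) and 0 markers passed at an adjusted p. These log2FC changed sign under the block: Pecam1 -0.19, Cdh5 -0.038, Kdr -0.26, Tie1 -0.019, Egfl7 -0.24 and Vwf -0.088. Without the block Pecam1 was at -0.18, Cdh5 at -0.028, Kdr at -0.27, Egfl7 at -0.31 and Vwf at -0.12. Without the higher mouse number series Kdr was at -0.030, Flt1 at 0.0097 and Esam at 0.0022, the ratio of Kdr to Flt1 differed by -0.070 and that of Tek to Tie1 by -0.13 on the log2 scale. After the GC and length correction Flt1 was at 0.0047. When single mice were left out, the log2FC ran from -0.048 to 0.21 for Pecam1, -0.10 to 0.17 for Kdr, -0.12 to 0.11 for Flt1, -0.16 to 0.090 for Esam, -0.16 to 0.41 for Egfl7 and -0.00089 to 0.35 for Vwf, while Cdh5, Tek, Tie1 and Cldn5 (0.32 to 1.01) stayed above 0. The log2 ratio difference then ran from -0.057 to 0.11 for Tek to Tie1, -0.029 to 0.24 for Vwf to Pecam1 and 0.35 to 0.71 for Cldn5 to Cdh5. In all, 36 of 220 alternative log2FC of markers changed sign, with sizes up to 0.31. The difference of Gm15551 ran from -0.28 to -0.17 CPM, and its exact permutation p was 0.0873 when any 1 of the ΔGm15551 mice was left out, 0.0476 without wild type replicate 2, 3, 5 or 6 and 0.00794 without wild type replicate 7. The median r of the 45 pairs ran from 0.79 to 0.86 and the pairs with an adjusted p under 0.05 numbered 36 to 45 over single mice left out. The cause of these changes was not tested. The depth limits Cldn5 (155 to 791 counts) and Vwf (250 to 657 counts) more than the other markers.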
